A study of Ambystoma mexicanum with 20 samples.

Results

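The step between segments D and C of axolotl oocytes was measured as the change in the composition of their RNA. The axolotl (Ambystoma mexicanum) is a salamander, and an oocyte is an immature egg cell. Per the labels, each of 4 oocytes was frozen, sectioned and parted into 5 segments from A at the animal end to E at the vegetal end, so that C is the middle segment and D lies next to it on the vegetal side. The 8 libraries of D (4) and C (4) were set against each other within each oocyte, and the 4 libraries of E were used to follow the same RNAs to the vegetal end. These are 12 of 20 libraries in the series, and no treatment, genotype or age is given in the labels. The oocytes are numbered 1, 2, 3 and 4 in the order of their sample identifiers. These are not the oocyte numbers in the sample titles. Oocytes 2 and 3 have the title numbers 4 and 5. Oocyte 1 has the highest title number of the 4, and oocyte 4 the next highest. The labels do not say whether the oocytes came from separate females, so p-values cover these 4 cells alone. In the main fit they rest on the spread left after mean differences between segments and between oocytes are taken off, over all 20 libraries.

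An amphibian oocyte is polarised: the large nucleus lies towards the animal pole and most of the yolk towards the vegetal pole. In the frog Xenopus, a set of maternal RNAs is carried to the vegetal cortex and anchored there, and some of these RNAs later direct germ layers and germ cells. In the axolotl, germ cells are induced in the embryo and are not set aside by an inherited vegetal germ plasm. A segment just vegetal of the middle lies where a graded distribution and one limited to the vegetal cap would look different.

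The table of counts held 32960 features under identifiers without gene names, and 0 of them matched the RefSeq gene table for the axolotl, so 4 features are named by identifier and no sequence is shown. For the same reason the cell type was not checked against markers, and adhering follicle cells were not measured. Total counts ran from 3589203 to 7587626 in D, from 2741140 to 9694202 in C and from 806943 to 6651808 in E. Each library started from the same mass of total RNA, so a level is a share of the RNA of a segment, given as CPM, the count divided by the effective library size (total count times TMM factor) on the usual CPM scale. A higher share of one RNA and a lower share of the others cannot be told apart in such data. Feature lengths are not given in the sources used here, so a CPM class is a class of read counts, not of molecules.

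To find the RNAs that change between D and C, all 20 libraries were fitted with a term for segment and a term for oocyte. Of 32302 features tested, 2224 (6.89%) differed between D and C (Benjamini-Hochberg adjusted p below 0.05, edgeR's quasi-likelihood test), 1338 (4.14%) higher in D and 886 (2.74%) lower in D. Without the oocyte term, 1070 features were called, 783 higher and 287 lower in D, of which 1064 were among the 2224. Leaving out an oocyte lowered the number to 1824 without oocyte 1, 1050 without oocyte 2, 771 without oocyte 3 and 867 without oocyte 4. The neighbouring step on the animal side, C against B, gave 0 features in the same fit and 39 in DESeq2. In the edgeR fit 795 features had an unadjusted p under 0.05, fewer than chance gives at that threshold over 32302 features.

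The RNAs higher in D changed more than those lower in D. Features higher in D had a median log2 fold change of 1.22 and features lower in D one of -0.51, against -0.01 over all tested features. The middle 50% of the changes ran from 0.68 to 2.08 for the higher features and from -0.71 to -0.39 for the lower ones, with features at the floor of 3 counts per library taken at their lower bounds. At least a 2-fold change was found for 791 of the 1338 higher features (59.1%) and for 80 of the 886 lower features (9.03%). At least a 4-fold change was found for 362 higher features (27.1%) and 19 lower ones (2.14%), and at least an 8-fold change for 107 higher and 4 lower. In 53 of the 1338 higher features all 4 libraries of C held at most 3 counts, and in 33 of these the libraries of B and A did too. These 33 passed the filter for low counts through their counts in D or E. The fall of an RNA to the floor in D was rarer among the calls, with 9 of the 886 lower features at 3 counts or fewer in all 4 libraries of D. How many of all tested features lie at the floor in C or in D was not counted.

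The split between the directions depends on the scaling. With TMM factors 60.2% of the calls were higher in D, against 40.7% with library totals alone and 0.517% with the authors' constants, which shift the median log2 fold change of all features to -1.88. The constants multiply all features of a library alike, and the changes given here are relative to the bulk of the RNAs in a segment. On the authors' constants 58.4% of the called features kept their direction, and 100% did with the shift of the median taken off. Many features called higher in D are thus lower in D on the authors' scale.

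**Figure D1:**
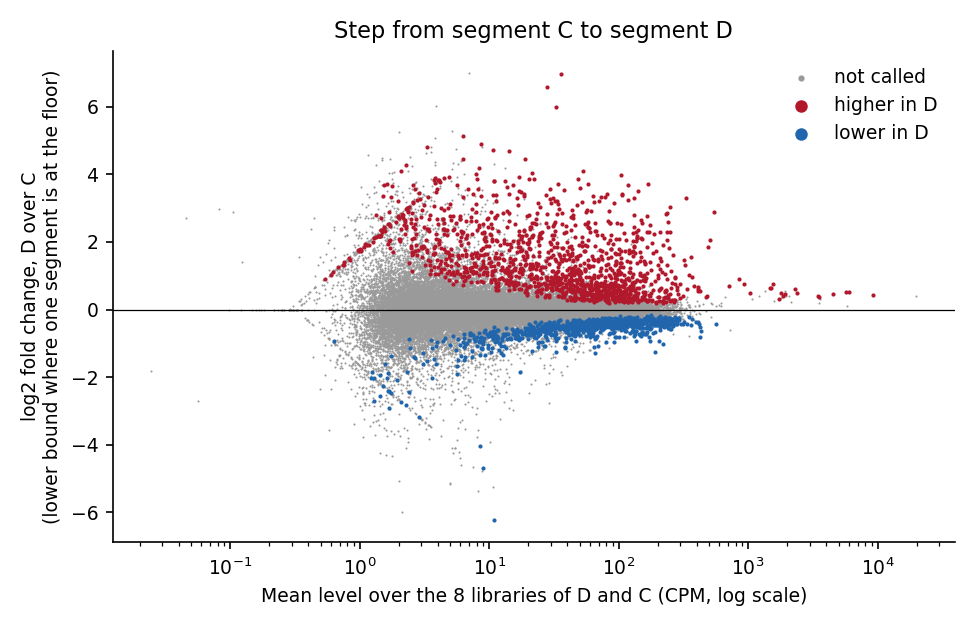
Each point is a feature, with its mean level over the 8 libraries of D and C on the x axis (CPM, log scale) and its log2 fold change of D over C on the y axis, as a lower bound where one segment held at most 3 counts in every library; red and blue mark features called higher and lower in D, grey the others. The red points reach a log2 of 6.96 and spread over all levels, while nearly all blue points lie between 0 and -2, and the few points above 1000 CPM are all on the upper side.

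The calls were unevenly spread over levels. The median of the mean level over D and C was 36.3 CPM for the higher features and 59.7 CPM for the lower features, against 9.04 CPM over all tested features. In the class from 1 to 10 CPM, with a median of 20.3 counts behind a value, 311 of 16390 features were called higher in D (1.90%) and 93 lower (0.567%). In the class from 10 to 100 CPM the calls were 732 (5.53%) and 519 (3.92%) of 13245. From 100 to 1000 CPM they were 268 (12.5%) and 273 (12.8%) of 2139, with a median of 807 counts behind a value. Few counts hide small changes, so the percentages of low and high classes are not comparable as frequencies of change. The median log2 fold change of the higher features was 1.32 in the class under 1 CPM (11 features), 2.08 from 1 to 10 CPM, 1.04 from 10 to 100 CPM and 0.77 from 100 to 1000 CPM. At low counts only large changes pass the test, so the call itself sets part of these sizes. Large increases were nevertheless found at high levels, where 42 features of the class from 100 to 1000 CPM were at least 4-fold higher in D and 0 at least 4-fold lower.

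The most abundant features shifted to one side. With TMM factors all 29 features with a mean of at least 1000 CPM had a fitted level higher in D than in C, 16 of them past the threshold (55.2%), while on the authors' constants, which lower the median of all features, all 29 were called lower in D. The changes were small. Those called had a log2 fold change from 0.31 to 0.77, and the 13 others, which did not pass the threshold, had 0.11 to 0.56. In 22 of the 29, D lay above C in all 4 oocytes, a pattern found in 13.2% of all tested features. A median of 10840.5 counts lay behind a value of the 29, against 20.3 in the class from 1 to 10 CPM. The 2 shares are therefore not compared at like counts. These 29 features, chosen by level, held 10.8%, 10.8%, 12.4% and 10.2% of the counts in D of oocytes 1 to 4, against 9.09%, 8.81%, 8.62% and 8.30% in C. D and C did not overlap, and the difference of 2.33 ± 0.973 percentage points (SD, n = 4) had an exact two-sided paired permutation p of 0.13, the smallest that 4 pairs allow. From D to E the share of all counts showed no common direction, with 9.67%, 12.96%, 10.9% and 9.05% in E of oocytes 1 to 4. With TMM factors 0 of the 29 were called for E against D (edgeR), with 5 at an unadjusted p under 0.05. Over all tested features only 3.94% were called higher and 2.38% lower in E, so the 0 does not show that the rise ended at D. The fitted level in E lay above D for 21 of the 29 and for 13 of the 16 called at D, against 44.3% of all tested features. The number called for D against C depended on the oocytes in the fit. It was 1 without oocyte 3, 8 without oocyte 4, 11 without oocyte 2 and 21 without oocyte 1, and 8 without the oocyte term. Leaving out an oocyte also lowered the calls over all features. The fitted level in D stayed above C for 28 of the 29 without oocyte 3 and for all 29 without each other oocyte. With oocytes 1 and 4 alone it did for 26, with 0 called.

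**Figure D2:**
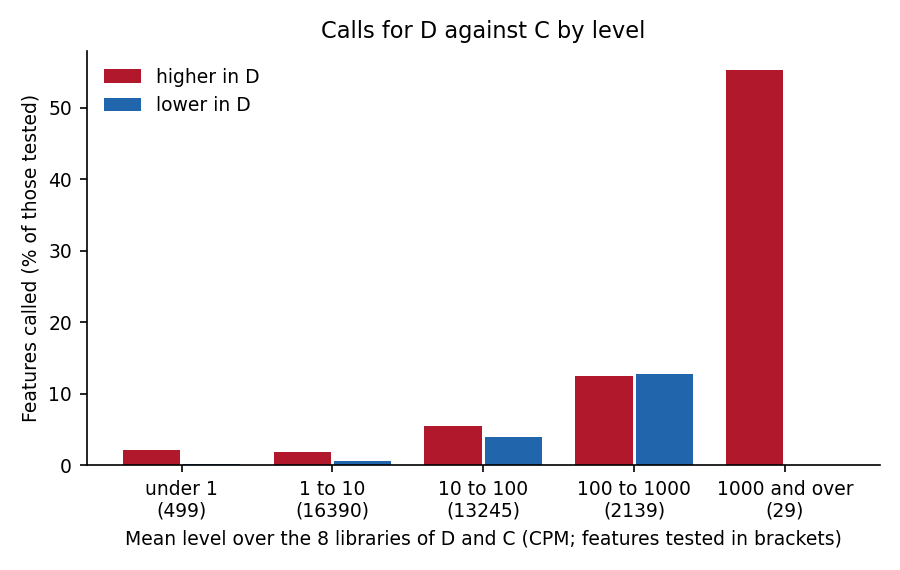
Bars give the percentage of tested features called higher in D (red) and lower in D (blue) for D against C, by class of mean level over the 8 libraries of D and C; the number tested is under each class. From the class of 1 to 10 CPM both directions increase to 12.5% and 12.8% in the class of 100 to 1000 CPM, and above it 55.2% of 29 features were higher and 0 lower.

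The step was alike in direction in the 4 oocytes. D lay above C in all 4 oocytes for 1292 of the 1338 higher features (96.6%), a pattern found in 13.2% of all tested features, and D lay below C in all 4 for 876 of the 886 lower features (98.9%), a pattern found in 14.2% of all. The 4 libraries of D lay wholly above the 4 of C for 856 of the higher features (64.0%, against 4.32% of all tested) and wholly below for 547 of the lower ones (61.7%, against 4.01% of all tested). These features were called on the same libraries, so the counts describe them and are no separate evidence. Of the higher features, 43 went up in 3 oocytes and 3 in fewer. The SD of the log2 ratio of D over C between oocytes had a median of 0.40 in the higher features, 0.20 in the lower ones and 0.45 in all. A small spread favours a call, and the called features lie at higher levels than all tested features. These medians are therefore no separate evidence either.

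To read the step in libraries that took no part in the choice, features were called in 3 oocytes and read in the fourth. Called without oocyte 1, 1150 features were higher in D, and 89.1% of them had D above C in oocyte 1. The figures were 97.9% of 721 features in oocyte 2, 99.5% of 561 in oocyte 3 and 98.6% of 580 in oocyte 4, against 46.5% to 49.6% over all tested features. Of the features called lower in D, 88.9% of 674 had D below C in oocyte 1, 98.2% of 329 in oocyte 2, 99.0% of 210 in oocyte 3 and 95.8% of 287 in oocyte 4, against 48.6% to 53.5% over all. The direction of the step thus held in a left-out oocyte for most features on both sides. In the shares over all tested features, equal values in D and C counted as above or below in some oocytes through rounding.

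Its size differed between oocytes. In the left-out oocyte the median log2 ratio of D over C of the higher features was 0.65 in oocyte 1, 1.44 in oocyte 2, 1.89 in oocyte 3 and 1.45 in oocyte 4. In the 3 oocytes of the choice it was 1.38, 1.60, 1.54 and 1.63 for the same 4 sets. Oocyte 1 thus showed a smaller step than the oocytes in which its features were called, and oocyte 3 a larger one. For the lower features the medians in the left-out oocyte were -0.28, -0.50, -0.63 and -0.40 for oocytes 1 to 4, with oocyte 1 again the smallest and oocyte 3 the largest in size. Between any pair of oocytes, the log2 ratios of D over C correlated across the 15413 features of at least 10 CPM with Pearson's r from 0.23 to 0.39, as a description across features, which are not independent.

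A test of whether the step differed between oocytes 1 and 4 and oocytes 2 and 3, pairs whose numbers in the sample titles are neighbours, called 0 features (edgeR, interaction term, smallest adjusted p 0.219), with 1143 (3.54%) at an unadjusted p under 0.05. That does not show that the pairs are alike. Fitted alone, oocytes 1 and 4 gave 0 calls (3016 at an unadjusted p under 0.05) and oocytes 2 and 3 gave 200.

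**Figure D3:**
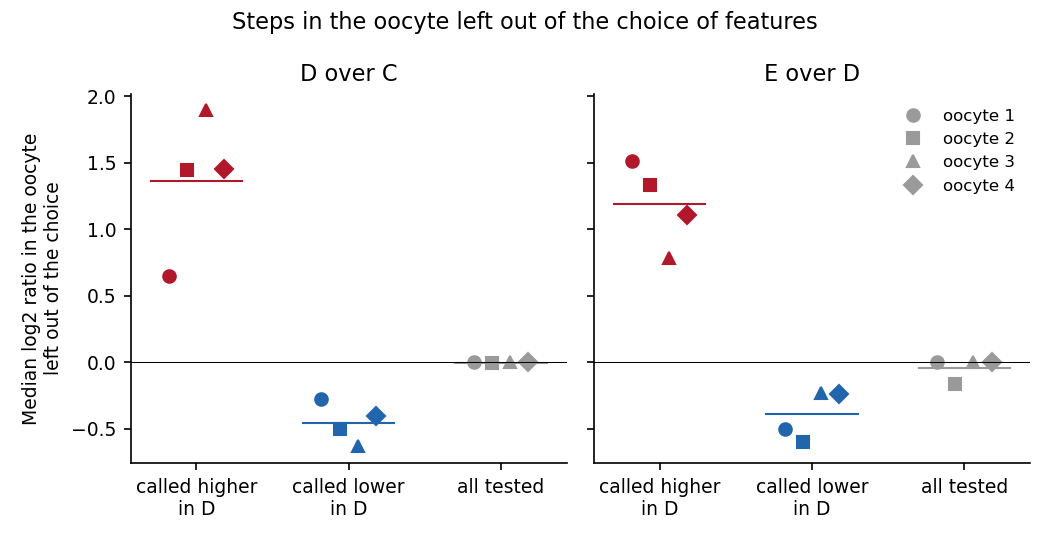
Points are the median log2 ratio, D over C (left) and E over D (right), in each oocyte of features called for D against C in the other oocytes, for features called higher in D (red), lower in D (blue) and all tested features (grey); lines are the mean of the 4 medians. Higher features lie above 0 in all 4 oocytes at both steps, and oocyte 1 has the smallest step into D (0.65) and the largest into E (1.52).

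The RNAs that changed at D were then followed to E. The libraries of D enter both comparisons, once on each side, so chance error in D pushes the steps in opposite directions. Of the 1338 features higher in D, 784 (58.6%) were called higher again in E against D, 554 (41.4%) were not called and 0 were called lower. Over all tested features, 3.94% were called higher and 2.38% lower in E. The count of 0 is from edgeR, in which 92 of the 1338 had a fitted level lower in E than in D. DESeq2 called 16 features higher in D and then lower in E.

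Of the 886 features lower in D, 293 (33.1%) were called lower again in E, 585 (66.0%) were not called and 8 (0.903%) were called higher. These 8 had a median fitted log2 fold change of -4.33 at the step into D and 4.07 at the step into E. These medians were not taken at lower bounds. With lower bounds at the floor, 3 of the 8 were less than 2-fold lower in D, 4 from 4-fold to 8-fold and 1 at least 8-fold. Their mean levels over D and C ran from 1.53 to 51.6 CPM. Without the oocyte term, 390 features were higher in D and higher again in E, and 82 were lower in D and lower again in E.

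The left-out oocytes gave the next step free of the choice. Of the features called higher in D without an oocyte, E lay above D in that oocyte for 95.8% in oocyte 1, 96.8% in oocyte 2, 96.1% in oocyte 3 and 97.8% in oocyte 4, against 37.7% to 50.4% over all tested features. The median log2 ratio of E over D was 1.52, 1.33, 0.79 and 1.11 in oocytes 1 to 4. Of the features called lower in D, E lay below D for 91.1%, 89.97%, 81.0% and 85.0%, against 49.6% to 57.3% over all tested features. Their median log2 ratio was -0.50, -0.60, -0.23 and -0.24 in oocytes 1 to 4, against -0.16 over all tested features in oocyte 2 and 0 in the other oocytes. Relative to the bulk of the RNAs in a segment, most RNAs higher in D were thus higher still in E, and most RNAs lower in D were lower still. In the shares over all tested features, equal values in E and D again counted to a side in some oocytes.

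Among features higher in D, the size of the first step went with the size of the next in the left-out oocytes. Features called less than 2-fold higher in D had a median log2 ratio of E over D from 0.37 to 0.76 across the 4 oocytes. Features called from 2-fold to 4-fold higher had 0.76 to 1.64, and those called at least 4-fold higher had 1.34 to 2.57. In each of the 4 oocytes the order of the 3 classes was the same. The classes also differ in level. For the higher features called with all 4 oocytes, the median level was 68.4 CPM below 2-fold and 19.8 CPM from 2-fold to 4-fold. It was 11.1 CPM from 4-fold to 8-fold and 13.3 CPM from 8-fold up. The part of level in the order of the classes was not tested. On the lower side the features called less than 2-fold lower had a median log2 ratio of E over D of -0.48, -0.58, -0.22 and -0.23 in oocytes 1 to 4. Those called from 2-fold to 4-fold lower had -1.09, -1.10, -0.73 and -0.40, further below 0 in each of the 4. These classes held 54, 29, 10 and 32 features. E lay above D for 9.26%, 3.45%, 30% and 31.3% of them, against 7.5%, 6.99%, 17.2% and 10.7% of those less than 2-fold lower. With all 4 oocytes in the choice, the fitted medians below 2-fold and from 2-fold to 4-fold were -0.30 and -0.31. Of these features, 35.4% and 13.1% were called lower again in E. The class of at least 4-fold lower, with 8 to 20 features, did not follow the order of the left-out medians. Its median log2 ratio of E over D was -0.18, 0, -0.25 and 0 in oocytes 1 to 4.

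The oocytes differed in how the change was divided between the steps. Over the fixed set of 1338 higher features, which were chosen in these libraries, the median log2 ratio of D over C was 0.77 in oocyte 1, 1.13 in oocyte 2, 1.43 in oocyte 3 and 1.15 in oocyte 4. The median log2 ratio of E over D was 1.39, 0.98, 0.58 and 0.92 in the same oocytes. The median log2 ratio of E over C was 2.20, 2.24, 2.09 and 2.16, so it varied less than either step. Oocyte 1, with the smallest step into D, had the largest step into E, and oocyte 3 the reverse. Both steps share the libraries of D, and the part of that sharing in the reverse order was not tested. In the same set the median log2 ratio of C over B was 0.05, 0.08, 0.34 and 0.23, larger in oocytes 3 and 4 than in oocytes 1 and 2.

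**Figure D4:**
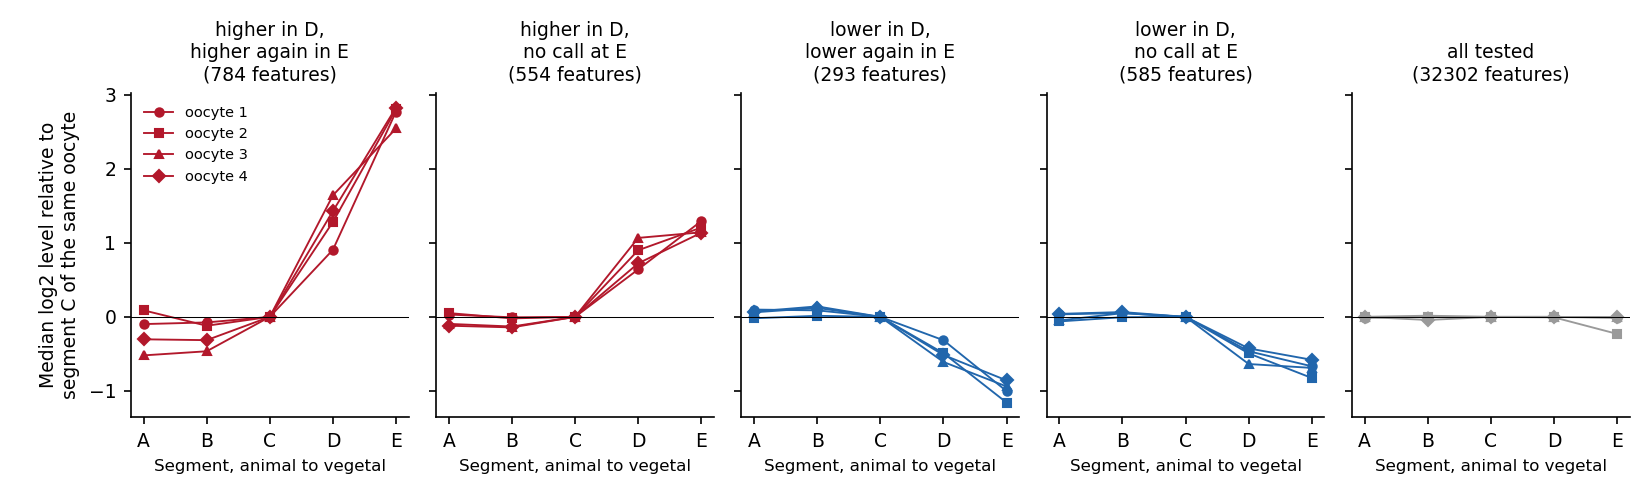
Lines give, for each of the 4 oocytes, the median log2 level of a set of features in segments A to E relative to segment C of the same oocyte, for features higher in D and called higher again in E (784), higher in D with no call at E (554), lower in D and lower again in E (293), lower in D with no call at E (585), and all tested features (32302). The red lines lie above 0 and the blue lines below 0 in D and E, and the sets were chosen on these libraries. In the set higher again in E, the lines of oocytes 3 and 4 already rise from B (-0.46 and -0.31) to C.

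The features without a second call had fitted levels mostly on the same side, though none passed the test at E. The 554 features higher in D with no call at E had a median log2 fold change of 0.89 at the step into D and 0.36 at the step into E, against 1.44 and 1.30 for the 784 that were called at both steps. The 585 features lower in D with no call at E had medians of -0.52 and -0.19, against -0.49 and -0.49 for the 293 called at both. A missing call at E does not show a plateau: 462 of the 554 had a fitted level above D in E and 477 of the 585 a fitted level below D in E, where 44.3% of all tested features were fitted above D and 55.7% below. The median level over D and C was 45.9 CPM for the lower features without a second call and 93.5 CPM for those with one.

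The share of counts in these features was then summed for each library. The 1338 features higher in D held 13.6%, 15.8%, 20.1% and 16.3% of the counts in D of oocytes 1 to 4, against 9.12%, 9.95%, 11.004% and 9.82% in C. The features were called on these libraries, so that D lies above C here follows from the choice. In E the share was 23.1%, 27.8%, 28.9% and 27.4%. The 886 features lower in D held 6.05% ± 0.584 of the counts in D and 8.79% ± 0.218 in C, with 4.40% ± 0.122 in E (SD, n = 4 each). Read in the oocyte left out of the choice, the share of the higher features differed by 4.31 ± 0.747 percentage points between D and C and that of the lower features by -1.21 ± 0.233 (SD, n = 4 each). Both had the same direction in 4 of 4 oocytes, with an exact two-sided paired permutation p of 0.13, the smallest that 4 pairs allow. The left-out sets differ between oocytes and their shares overlapped between D and C. They held from 561 to 1150 higher and from 210 to 674 lower features, and smaller sets hold smaller shares.

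Among the 990 features higher in D that had a mean of at least 10 CPM and the same direction in all 4 oocytes, AMEXTC_0340000041503 had the largest change. It had 0.182, 20.3, 205 and 60.4 CPM in D of oocytes 1 to 4, against 0 counts in all 4 libraries of C. Oocyte 1 stands apart in D, where its value is 1 count. The level in D was at least 124-fold higher than in C, taken as the mean of D over the mean floor of 0.574 CPM in C (adjusted p 0.00968, edgeR). Without the library of oocyte 3 the bound was 47.0-fold, and in oocyte 1 the value in D lay below the floor. In E it had 173, 222, 607 and 694 CPM, and E lay above D in 4 of 4 oocytes (log2 fold change 3.45, adjusted p 0.0306, edgeR). It was also found in 1 library of A with 26 counts and in 1 of B with 34 counts. Over 12 alternatives the adjusted p for D against C ran from 2.32e-18 to 0.507, and 6 did not pass the threshold, among them the fits without oocyte 2, 3 or 4.

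AMEXTC_0340000121907 had the highest level of the features higher in D. It had 7803, 12985, 13671 and 7597 CPM in D of oocytes 1 to 4, against 5782, 9715, 9816 and 5927 CPM in C. The groups overlapped, since oocytes 2 and 3 were higher than oocytes 1 and 4 in both segments, but D lay above C in each oocyte. The log2 fold change was 0.42 (adjusted p 0.00373, edgeR), with a paired SD of 0.05 (n = 4), while on the authors' constants it was -1.45, which is above the median of all features on that scale. Without the oocyte term the adjusted p was 0.791 (edgeR), and 5 of 12 alternatives did not pass the threshold. The adjusted p over the 12 ran from 1.49e-10 to 0.791. Its low end came from the edgeR fit with the authors' constants, in which the direction was reversed. In E it had 8395, 16339, 14391 and 8386 CPM, and the step from D was not past the threshold (log2 fold change 0.16, adjusted p 0.301, edgeR). This single feature held 0.744% to 1.30% of the counts in D and 0.607% to 1.02% in C.

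Among the 785 features lower in D that met the same conditions, AMEXTC_0340000196541 had the largest change. It had 0, 1.39, 0 and 0 CPM in D of oocytes 1 to 4, against 16.3, 38.4, 17.5 and 13.2 CPM in C. The fitted log2 fold change was -6.23 (adjusted p 0.0453, edgeR), which rests on 5 counts in D in all. In E it had 52.4, 62.8, 13.5 and 0.862 CPM, and E was called higher than D (log2 fold change 6.59, adjusted p 0.0399, edgeR). It was near 0 in A too, at 0.575 ± 0.794 CPM, and at 49.1 ± 42.8 CPM in B (SD, n = 4 each), so its course along the axis was not monotonic. The adjusted p for D against C ran from 0.000584 to 0.444 over 12 alternatives, and 6 did not pass the threshold, among them each of the 4 fits that left out an oocyte. The low end came from the edgeR fit with the authors' constants, which lower the median of all features.

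AMEXTC_0340000156368 had the highest level of the features lower in D. It had 446, 630, 522 and 348 CPM in D of oocytes 1 to 4, against 560, 807, 677 and 537 CPM in C. The groups overlapped between oocytes, and D lay below C in each of the 4. The log2 fold change was -0.42 (adjusted p 0.0423, edgeR), with a paired SD of 0.14 (n = 4). In E it had 228, 393, 453 and 321 CPM, lower than D in 4 of 4 oocytes (log2 fold change -0.48, adjusted p 0.0245, edgeR). Its adjusted p for D against C lay close to the threshold, ran from 9.71e-11 to 0.563 over 12 alternatives and failed in 8 of them. The low end came from the edgeR fit with the authors' constants, which lower the median of all features. The next lowest was 0.00937, in DESeq2.

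**Figure D5:**
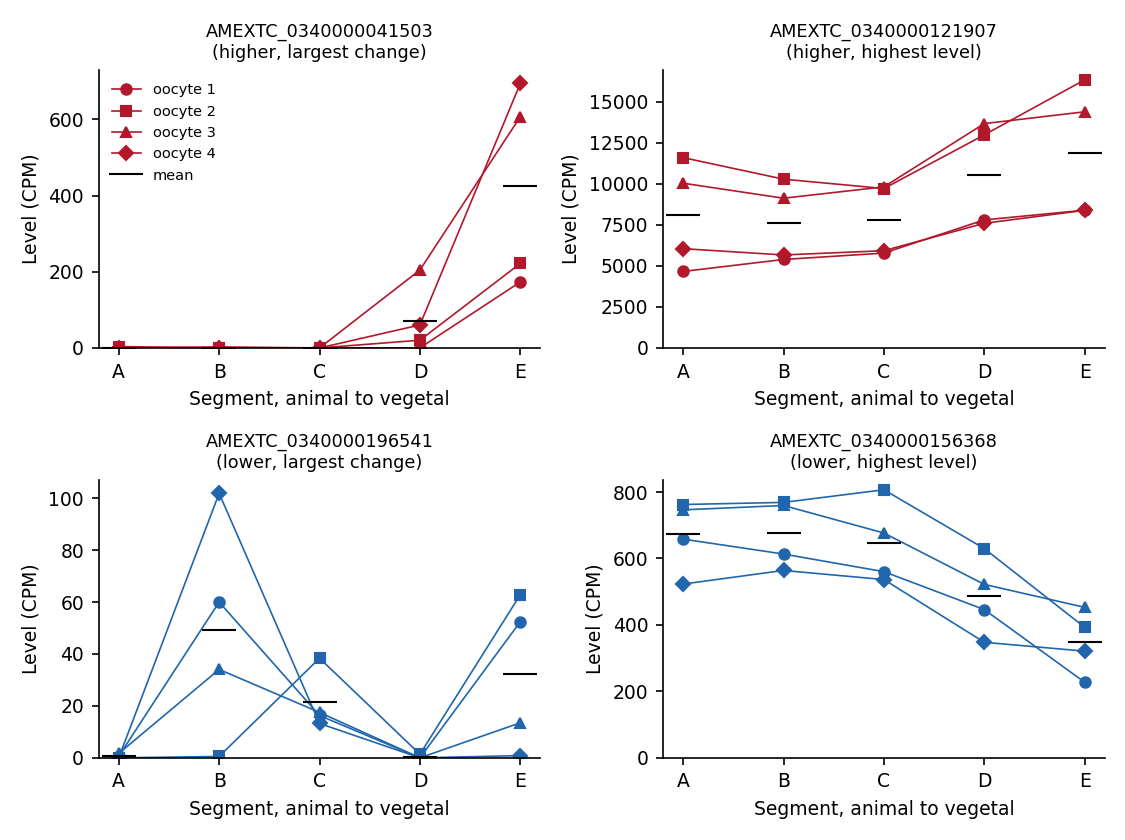
Panels give the level of the 4 named features (CPM) in segments A to E; points joined by lines are the 4 oocytes and black bars the mean. AMEXTC_0340000041503 is at or near 0 up to C and reaches 173 to 694 CPM in E, AMEXTC_0340000121907 and AMEXTC_0340000156368 change by small amounts in the same direction in every oocyte between C and D, and AMEXTC_0340000196541 is at 0 to 1.39 CPM in D and at 0.862 to 62.8 CPM in E.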

How the data were processed

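RNA of 20 segments from 4 oocytes was depleted of ribosomal RNA and sequenced from strand-specific libraries, per the labels' protocols. The submitters' processing notes name Trimmomatic, STAR 2.5.3a, kallisto and DESeq2, without their roles. The annotation and genome build are not given in the sources used here. The authors deposited raw counts for 32960 features, each with a highest count of at least 30, and a second table. Its deposited values are a signal, the raw counts times 1 constant per library, and dividing by it gave whole reads (within 0.01) for 100% of values. Those reads are the raw counts. A count test on them with the authors' constants as scaling called 26701 features.

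Analysis used R 4.3.3 and edgeR 4.0.16. filterByExpr (minimum count 10, minimum total 15) kept 32302 features and left out 658 with 0.0580% of counts. Scaling was TMM. The model held segment and oocyte, the quasi-likelihood dispersion was estimated robustly, and 12 degrees of freedom remained. P-values were adjusted by Benjamini-Hochberg over all tested features. The oocyte term follows the labels, which give the segments of an oocyte 1 identifier. Deviations from segment means correlated from 0.168 to 0.479 over the 40 library pairs of the same oocyte. D and C of the same oocyte correlated from 0.320 to 0.405. D and C of different oocytes came close within oocytes 1 and 4 or 2 and 3, at 0.248 to 0.373, so the oocytes also fell into 2 pairs. Across these pairs the values ran from -0.392 to -0.280. Deviations from a segment mean sum to 0 over the 4 oocytes, so positive values within pairs bring negative ones across them. The negative values are thus no separate evidence. Ratios within 1 oocyte were taken on log2 CPM, prior count 2. Where all 4 libraries of the lower segment held at most 3 counts, fold changes are lower bounds against 3 counts per library, which cover counting error alone. The medians over features split by their call at E are fitted values without these bounds. The script was tested on simulated data.

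In each direction the feature of largest change and the feature of highest level are named, among those past the threshold with a mean of at least 10 CPM over D and C and 1 direction in all 4 oocytes. The comparison and the oocyte pairs were chosen with earlier results of these data known. Lists of genes and cell markers could not be used without gene names. The alternatives were RLE factors, library totals, the authors' constants, no filter, a minimum mean CPM of 1, thinning, leaving out each oocyte, no oocyte term, fewer segments or oocytes, DESeq2 1.42.0 (with a local dispersion trend, since the parametric one could not be fitted well), limma 3.58.1 on log2 of the scaled value plus 1, an adjusted p under 0.01 and a test against a 2-fold change. Leaving out the smallest library, and each library of D in the bound of 1 named feature, was added after the data were seen.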

Additional observations from a re-analysis of the deposited data

Results flagged for a closer look

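A library far from the other 3 of its segment was found in 7 of 34 groups of 4 values, where chance gives about 1.7 (1 in 20). That number is a rough guide, since the same sets were read in several segments and the groups are not independent. Where the other 3 values are 0, any count stands apart. AMEXTC_0340000041503 had 3.70 CPM in oocyte 2 in segment A, and in segment B oocyte 3 had 2.74 CPM, against 0 in the other oocytes. AMEXTC_0340000196541 had 38.4 CPM in segment C of oocyte 2, against 13.2 to 17.5 CPM, and 1.39 CPM in its segment D, against 0. The share of counts in the features called lower in D without the oocyte that was read was 8.69% in segment A, 8.21% in B and 3.92% in E of oocyte 1, against 2.902% to 3.68%, 3.10% to 3.88% and 1.29% to 1.67% in the other oocytes. The set read in oocyte 1 held 674 features and the other sets 210 to 329.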

How the results depend on the processing

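The values are in the order features called for D against C, higher in D, lower in D, higher in D then higher in E, higher in D then lower in E, lower in D then lower in E, and lower in D then higher in E, which were 2224, 1338, 886, 784, 0, 293 and 8. No filter, RLE factors, a floor of 1 on the mean CPM and leaving out the smallest library (segment E of oocyte 2, added after the data were seen) moved no count by more than 1.5 times, except 1 feature instead of 0 for higher then lower in the last. The cause of the changes below was not tested, apart from fewer counts, fewer libraries and stricter thresholds by construction. Library totals gave 1606 lower in D, with 5 higher then lower and 957 lower then lower. The authors' constants gave 26701, 138, 26563, 108, 1, 10888 and 285, and limma on their values gave 24598, 139, 24459 and 89, with 11369 lower then lower and 292 lower then higher. The paired design was the one reported; with no replicate block the values were 1070, 783, 287 and 390, then 82 and 2. Segments C, D and E alone gave 1176 features with 262 lower, 1 higher then lower, 58 lower then lower and 2 lower then higher. Segments C and D alone gave 547, 434 and 113, without a step to E. With 1 oocyte left out at a time the ranges were 771 to 1824, 561 to 1150, 210 to 674, 294 to 523, 0 to 2, 44 to 94 and 2 to 5. Oocytes 1 and 4 alone gave 0 in all (3016 for D against C at an unadjusted p under 0.05), and oocytes 2 and 3 alone gave 200, 168 and 32, with 0 called at both steps. Thinned to the smallest library, 128 features were called, 123 higher and 5 lower, with 52 higher at both steps, 0 lower at both and 0 lower then higher, so depth limits the calls. DESeq2 gave 4061, 2180, 1881, 1184, 16, 512 and 49. An adjusted p under 0.01 gave 1101, 742, 359, 435, then 91 and 1, and testing against a 2-fold change gave 210, 204, 6, 68, then 0 and 0. On the authors' constants AMEXTC_0340000121907 had a log2 fold change of -1.45 for D against C, and 25 values of named features were no longer past the threshold under some alternative. Chosen in all 4 oocytes instead of the other 3, the features higher in D differed in share by 6.49 percentage points between D and C and those lower by -2.74.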
